A study of Mus musculus with 1778 samples.

Results

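Otx1, Otx2, Hesx1, Six3, Rax, Lhx2, Lhx5, Fezf1, Dmbx1 and Emx2 are 10 transcription factor genes known from the anterior head of the vertebrate embryo. They were chosen by name, with earlier results of these data known, and all 10 were found among the 24920 genes of the count table. Fezf1 encodes a zinc finger protein, and the others are homeobox genes. Their levels are described here by embryonic stage, by plate, and in cells with and without reads of Sox10 or Pou5f1. Sox10 is a transcription factor of neural crest cells, and Pou5f1 is a pluripotency factor of the early embryo.

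Single cells were sorted by flow cytometry from C57BL/6 mouse embryos that carried Wnt1::Cre and Rosa26TdTomato, and each cell was sequenced by Smart-Seq2, which reads whole transcripts. In such embryos a cell is labelled once it or an ancestor has transcribed the Wnt1::Cre transgene, so the label marks a history of Wnt1 promoter activity and not a cell type. Genotype and strain were the same in all 4 groups, which were embryos of 4, 6, 8 and 10 somites with 13.4%, 48.4%, 12.8% and 25.4% of the 1778 cells. Embryos and litters are not identified in the labels, so every stage counts as 1 pool and no test between stages was possible.

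Anterior identity in the vertebrate head is set up in layers. The OTX factors mark the forebrain and midbrain part of the neural plate, Hesx1, Six3, Rax and Lhx2 act in its most anterior part and in the eye field, and Emx2 acts in the later dorsal forebrain. Cranial neural crest cells leave the dorsal edge of the same neural tube and turn on Sox10 as they do so.

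Of the cells, 1728 passed a minimum of 50000 gene reads and 1500 genes with a read, and 12.7%, 48.3%, 13.1% and 25.8% of these were of 4, 6, 8 and 10 somites. They held 92185 reads at the least and 859223 at the median, and 54.4% of all reads lay on the ribosomal RNA gene Rn45s. Levels are given as RPM, the reads of a gene per 1000000 reads on genes, summed over the cells of a group, with exact Poisson intervals at 95% that cover counting error only. The titles carry 8 numbers that were read as plates and are called A to H here in ascending order. The cells of 4 somites came from plates D and F, those of 6 from A, B, E, F and H, those of 8 from B and D, and those of 10 from B, C and G, so no plate held both 4 and 10 somites. At 4 somites plate F (58.2% of the cells) stood apart from plate D (41.8%), with Pou5f1 at 18.7 against 3.05 RPM and a mean summed level of 10 dissociation stress genes of 534.4 against 64.2 RPM. Clustering without the 10 genes gave 14 clusters, which included endothelial-like, surface ectoderm-like and head mesoderm-like cells beside crest-like and neural plate cells, so the label of cranial neural crest did not hold for every cell.

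Upstream sequence was at hand for 7 of the 10 genes, as 11 windows of 250 bases before a RefSeq start site on build GRCm38.p6. Of these, 4 windows, 1 each for Otx2, Hesx1, Lhx2 and Dmbx1, held no base of an annotated exon. Those of Otx2, Hesx1 and Dmbx1 are shown because they belong to the gene found at a clear level in the most cells, the gene with the widest difference between stages, and the gene that ran apart from the others. Each is written 5′ to 3′ on the gene's strand, and capitals mark the homeodomain core letters TAATTA or TAATTG on either strand. The Otx2 window is chr14:48667645-48667894 on the minus strand, that of Hesx1 is chr14:27000112-27000361 on the plus strand, and that of Dmbx1 is chr4:115939927-115940176 on the minus strand.
Otx2: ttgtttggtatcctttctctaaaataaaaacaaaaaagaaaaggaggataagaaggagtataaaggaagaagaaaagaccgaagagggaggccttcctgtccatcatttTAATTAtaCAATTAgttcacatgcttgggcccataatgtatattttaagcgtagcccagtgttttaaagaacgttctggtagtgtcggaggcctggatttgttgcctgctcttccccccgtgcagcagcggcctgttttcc
Hesx1: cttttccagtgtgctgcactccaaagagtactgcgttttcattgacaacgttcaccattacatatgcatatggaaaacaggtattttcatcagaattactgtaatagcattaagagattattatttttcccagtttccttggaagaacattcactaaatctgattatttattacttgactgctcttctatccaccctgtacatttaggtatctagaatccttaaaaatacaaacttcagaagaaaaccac
Dmbx1: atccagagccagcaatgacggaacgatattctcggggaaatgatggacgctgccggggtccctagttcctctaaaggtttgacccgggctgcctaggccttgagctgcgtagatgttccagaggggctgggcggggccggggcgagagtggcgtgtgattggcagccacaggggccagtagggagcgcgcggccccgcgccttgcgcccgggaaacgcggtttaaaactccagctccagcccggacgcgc
The Otx2 window held TAATTA and TAATTG once each, and they did not overlap. Over 32851 promoter windows of the same length, 4.84% held TAATTA, which reads the same on both strands, and 7.17% held TAATTG. The core recognised by bicoid-type homeodomains such as those of the OTX factors, TAATCC, was in 6.25% of windows and in none of the 3 shown. The GC content was 42% for Otx2, 34% for Hesx1 and 65.2% for Dmbx1. A match of 6 letters is a description of the sequence and not a bound site.

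Otx2 was the gene with a clear level (at least 10 RPM in a cell) in the most cells. It encodes a homeodomain factor needed for forebrain and midbrain formation and lies on the minus strand of chromosome 14, from 48657677 to 48673819 (GENCODE vM21 model, mm10). Its level was 39.8 RPM (95% interval 38.99 to 40.6) at 4 somites, 24.99 at 6, 22.8 at 8 and 11.6 at 10 somites. The 2 plates of 4 somites stood at 21.2 and 54.4 RPM, the 5 plates of 6 somites between 18.7 and 30.2, the 2 of 8 somites at 22.4 and 26.9, and the 3 of 10 somites between 10.97 and 20.6. The plates of 10 somites thus lay below those of 4 and of 8 somites and overlapped those of 6. Otx2 shares exon bases with the antisense gene Otx2os1 (1.48 RPM at 4 somites and 0.22 at 10), and reads of overlapping genes cannot be told apart without strand. Its paralogue Otx1, on the minus strand of chromosome 11 (21994764 to 22002897), stood at 10.6, 10.4, 9.64 and 4.78 RPM at 4, 6, 8 and 10 somites. Otx1 was therefore nearly level over the first 3 stages, and its 3 plates of 10 somites (4.73 to 5.22 RPM) lay below all plates of the earlier stages (8.93 to 19.5 RPM). On plate A, with 22 cells of 6 somites, 1 cell held 47.9% of the Otx2 reads and 1 held 40.6% of the Otx1 reads, and the levels there were 29.03 and 19.5 RPM with and 16.3 and 12.5 RPM without that cell, a setting added after the data had been seen.

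Hesx1, a homeodomain repressor of the anterior forebrain and pituitary, differed most between stages. It lies on the plus strand of chromosome 14 (26994416 to 27002329). Its level was 22.7 RPM (22.1 to 23.3) at 4 somites, 11.4 at 6, 3.01 at 8 and 1.58 (1.45 to 1.72) at 10 somites. Plates of 4 somites held 11.7 and 31.3 RPM and those of 10 somites 0.17 to 1.67 RPM, but the 5 plates of 6 somites ran from 1.09 to 20.6 RPM and so overlapped the plates of every other stage.

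Six3 and Rax are homeodomain factors of the eye field and ventral forebrain. Six3 (chromosome 17, plus strand, 85613608 to 85629302) stood at 8.94, 5.56, 4.51 and 2.16 RPM over the 4 stages, and its plates of 10 somites, at 2.30 RPM or less, lay below all others. Its antisense neighbour Six3os1, with which it shares exon bases, stood at 1.78, 1.76, 3.17 and 1.81 RPM and did not move with it. Rax (chromosome 18, minus strand, 65928277 to 65939787) stood at 13.2, 9.66, 8.79 and 6.36 RPM, and its plates overlapped between 6, 8 and 10 somites. It was carried by few cells, since the 29 cells with at least 10 RPM held 98.7% of its reads at 4 somites.

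Lhx2, a LIM homeodomain factor of the eye field and dorsal forebrain, did not follow the others. Its level (chromosome 2, plus strand, 38339281 to 38369733) was 6.05 RPM at 4 somites, 5.53 at 6, 8.68 at 8 and 5.21 at 10 somites, and its plates overlapped at all stages. Lhx5, a related LIM homeodomain factor of the early anterior neural plate (chromosome 5, plus strand, 120431699 to 120441223), came next to Otx2 in RPM at 4 somites. It stood at 33.7, 26.1, 13.3 and 9.84 RPM, but its 3 plates of 10 somites held 1.13, 7.20 and 24.99 RPM, the last of them on plate B. On that plate 1 of 55 cells held 43.1% of the Lhx5 reads. Without this cell the plate stood at 14.5 RPM, below all plates of 6 somites (17.9 to 31.9 RPM), and with it within their range, although the lowest of those plates likewise stood at 14.6 RPM without its own cell with most reads. The 1.13 RPM of plate G, with 12 cells, came from 1 cell.

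Fezf1, the zinc finger repressor of forebrain patterning (chromosome 6, minus strand, 23245044 to 23248362), stood at 21.7, 12.1, 8.56 and 5.10 RPM. Both plates of 4 somites gave nearly the same value, 21.4 and 21.98 RPM, and all plates of later stages lay lower, at 16.1 RPM or less. Emx2, a homeodomain factor of the later cortex (chromosome 19, plus strand, 59458372 to 59465357), was the lowest of the 10 at 4 somites with 1.78 RPM, and stood at 1.23, 0.82 and 0.84 RPM afterwards. It shares exon bases with the antisense gene Emx2os. Dmbx1, a paired-type homeodomain factor known from the developing midbrain (chromosome 4, minus strand, 115915119 to 115939926), stood at 7.60, 3.57, 2.80 and 1.61 RPM. At 8 somites 1 cell held 36.9% of its reads, and the level without that cell was 1.77 RPM. Its plates of 4 somites lay apart, with 2.98 RPM on plate D and 11.2 RPM on plate F.

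**Figure D1:**
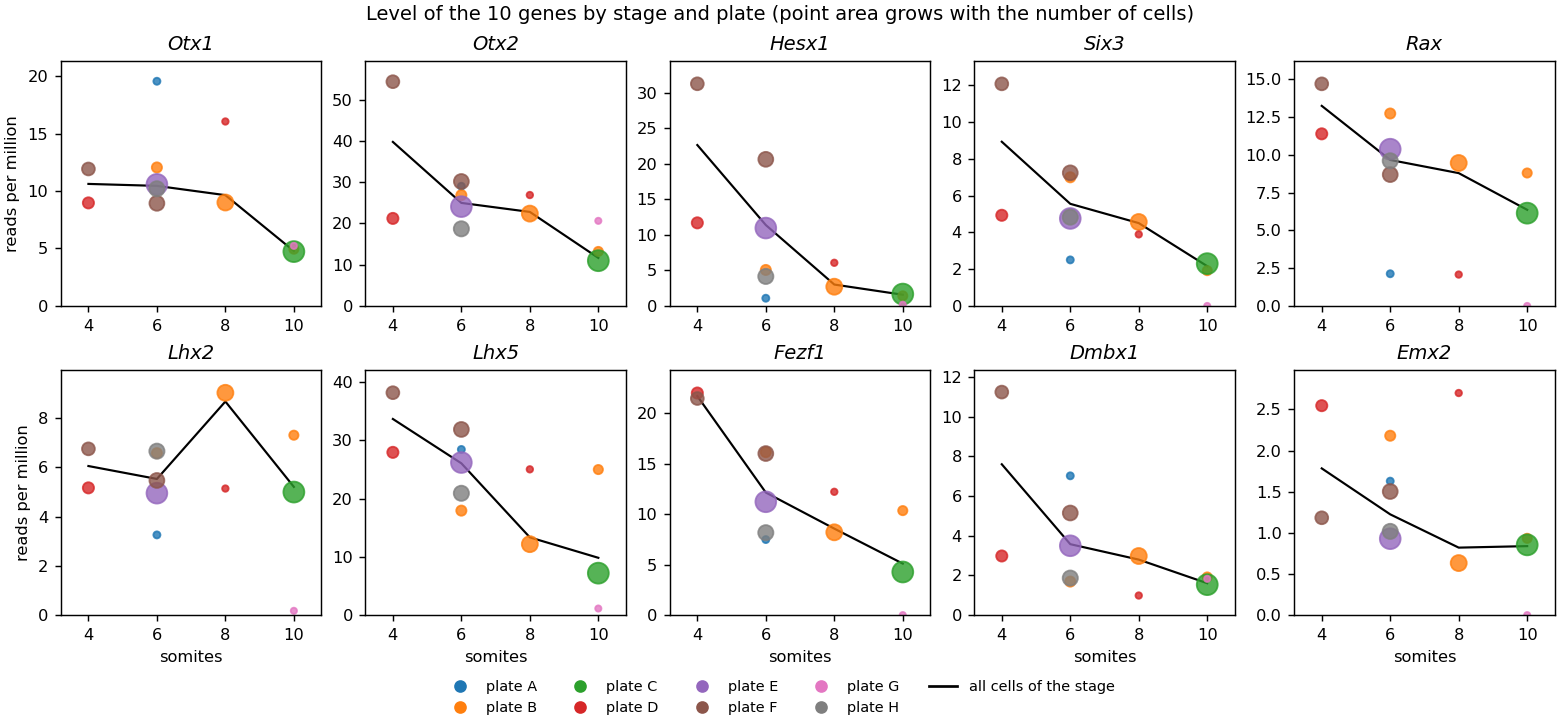
RPM of each gene (vertical axis) by somite stage (horizontal axis). Points are plates, with area growing with the number of cells, and the line is the sum over all cells of a stage. Otx2 ran from 39.8 to 11.6 RPM and Hesx1 from 22.7 to 1.58 RPM, while Lhx2 was highest at 8 somites (8.68 RPM) and the plates of 1 stage often lay far apart.

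Levels of different genes were compared per kilobase of exon. At 4 somites the order was Hesx1 (18.2 RPM per kilobase), Lhx5 (12.5), Otx2 (9.42) and Fezf1 (8.997), and then Rax (2.26), Otx1 (1.96), Six3 (1.64), Lhx2 (1.38), Dmbx1 (1.30) and Emx2 (0.59). Neighbours in this order overlapped between the 2 plates, except that the lowest plate value among the first 4 genes, 5.03 for Otx2, was above the highest among the other 6, 2.51 for Rax. At 10 somites Hesx1 had moved from the first to the fourth place, with 1.27 RPM per kilobase, behind Lhx5 (3.66), Otx2 (2.76) and Fezf1 (2.12).

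Between the ends of the series, 9 of the 10 genes were lower by 2-fold or more at 10 somites. Hesx1 was 14.3-fold lower (log2 ratio -3.84, counting interval -3.97 to -3.72), Dmbx1 4.73-fold, Fezf1 4.25-fold, Six3 4.13-fold, Lhx5 3.42-fold and Otx2 3.41-fold lower. Otx1 (2.22-fold), Emx2 (2.13-fold) and Rax (2.08-fold) were just past 2-fold, and Lhx2 was 1.16-fold lower. With no minimum level, 13.6% of all 17289 genes with a ratio were lower by that much. Among genes with at least 5 RPM at 1 stage or both, which left out Emx2, 8 of 9 were lower against 3.96% of 8805 genes, and the median gene stood at 0.17 on the log2 scale. Otx1, Hesx1, Six3 and Dmbx1 reached 5 RPM at 4 somites and not at 10, so the count over the genes that passed is partly set by that filter. Rax moved to a log2 ratio of -0.89 without 1 cell of 4 somites that held 11.2% of its reads there. In bulk sums such as these, fewer cells with a gene and less RNA per cell cannot be told apart, and both are given separately further on.

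Stage and plate cannot be told apart over this span, so the ratio was also put together from plates that held neighbouring stages. By way of 6 somites, from plate F (6 against 4) and plate B (10 against 6), 6 of 9 genes passed 2-fold lower, against 13.2% of genes. By way of 8 somites, from plate D (8 against 4) and plate B (10 against 8), 4 of 9 did, against 8.73% of genes. The median gene stood at -0.30 by the first route and 0.01 by the second. Relative to it, Rax (-0.99) and Fezf1 (-0.76) did not pass 2-fold by the first route, and the values below are not relative to it. Hesx1 (-2.43 and -1.86 on the log2 scale) and Six3 (-2.60 and -1.58) passed by both routes, as did Rax (-1.29 and -2.54). Lhx5 stood at 0.22 by the first route and 0.88 by the second, and these values rested on the 1 cell of plate B named above, without which they were -0.57 and 0.09. Emx2 stood at -0.87 and 0.66, and without the cell of plate B with most of its reads at 10 somites at -1.67 and -0.14. Rax by the first route was at -0.91 without 1 cell of 6 somites, and Fezf1 (-1.06) at -0.87 without the cell of 6 somites with most of its reads. Otx2 was at -1.87 by the first route and -0.42 by the second. Without plate F, 3 genes passed 2-fold over the whole span in place of 8, against 2.23% of genes, namely Hesx1 (-2.89), Fezf1 (-2.11) and Lhx5 (-1.51). Six3 and Dmbx1 then stayed below 5 RPM, as Emx2 did before, and were not counted. Of these, Six3 (4.93 RPM at 4 and 2.16 at 10 somites) and Emx2 (2.55 and 0.84 RPM) were lower by more than 2-fold. The median gene moved too, from 0.17 to 0.52.

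The single steps were smaller. From 4 to 6 somites 1 of 9 genes passed 2-fold lower, against 0.616% of all genes tested, and this was Dmbx1 (log2 ratio -1.09). Hesx1 was next with -0.99, or -1.04 without 1 cell of 6 somites. Within plate F the count was 1 of 9 as well, against 3.28%, and again it was Dmbx1 (-1.13). From 6 to 8 somites Hesx1 was the 1 gene of 8 past 2-fold (-1.92), against 0.880% of genes. Within plate B its ratio over that step was -0.91 and 0 of 8 passed, against 1.29%, though Hesx1 was at -1.13 and Fezf1 at -1.18 without 1 cell of 8 somites each. From 8 to 10 somites 1 of 6 passed, against 0.940% of genes, and this was Otx1 (-1.01), with Otx2 at -0.97. Without 1 cell of 8 somites Otx1 was at -0.87, and without 1 cell of 10 somites Otx2 was at -1.06. Six3 (-1.06) was below 5 RPM at both stages and was not counted. Within plate B 0 of 6 were lower over that step, against 2.62%. Lhx5 was higher (1.04), but stood at 0.25 without the 1 cell named above, and Otx1 (-0.86) was at -1.52 without the cell of 10 somites with most of its own reads. On plate D, with 15 cells of 8 somites and 92 of 4, 1 of 7 was lower, against 4.36%, namely Rax (-2.44).

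Other genes of the anterior neural plate were compared from a list of 22. Of the 10 that reached 5 RPM, 5 were lower by 2-fold or more at 10 somites than at 4 and 0 were higher. Fgf15, a growth factor of the anterior neural plate and the midbrain-hindbrain boundary, stood at 122.3 and 13.8 RPM, and Shisa2, an inhibitor of Wnt and FGF receptors, at 150.9 and 24.3 RPM. Sp8, a zinc finger factor of the anterior neural ridge, stood at 29.96 and 4.34 RPM and Lrp2, an endocytic receptor of the neural plate, at 57.1 and 9.41 RPM. Of 8 midbrain-hindbrain boundary and hindbrain genes that reached 5 RPM, 6 were lower, among them Pax2 (6.73 to 0.31 RPM) and En1 (9.30 to 1.84 RPM), so lower levels were not particular to the forebrain genes. Of 12 neural crest genes tested, 11 were higher and 0 lower, with Sox10 at 6.86, 42.5, 173.4 and 142.2 RPM over the 4 stages.

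The share of cells with a gene was measured after each cell had been thinned to 50000 reads. Shares of cells with at least 1 read were lower at 10 than at 4 somites for each of the 10 genes. For Rax, Lhx2 and Emx2 the intervals of the 2 stages overlapped, with Emx2 at 5.45% (2.85 to 9.33) and 4.04% (2.41 to 6.30). These intervals treat cells as independent and leave out differences between plates, so their overlap or lack of it is no comparison of stages. The same count over all genes is not given, so the direction is not set against a background. For Otx2 the thinned share was 55% at 4 somites, 37.6% at 6, 25.1% at 8 and 18.6% at 10 somites, and before thinning 73.6%, 52.8%, 45.8% and 32.7%. On plates D and F at 4 somites the thinned Otx2 share was 40.2% and 65.6%. For Hesx1 the thinned shares of 4 and 10 somites were 30% and 3.14%, and before thinning 51.8% and 8.97%. For Lhx2 it was 11.8% at 4 somites, 18.9% at 8 and 8.74% at 10, and before thinning 24.5% and 25.1% at the ends, so its direction rests on the thinning.

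Many cells held only a few reads of a gene, so a clear level was set at 10 RPM in a cell, a limit chosen after the data had been seen. Cells at a clear level held most of the reads, 98.9% for Otx2 at 4 somites and 94.3% at 10. Their share for Otx2 was 63.6% (exact Clopper-Pearson 95% interval 56.9 to 69.997) at 4 and 19.5% (15.9 to 23.5) at 10 somites, while the median level among them was 45.9 RPM at 4 somites and 36.6 RPM at 10. Intervals of shares cover the sampling of cells only. The plates of 4 somites stood at 47.8% and 75%, both outside that interval, and those of 10 somites between 17.7% and 41.7%. For Hesx1 the shares lay further apart, with 36.8% of cells at 4 somites and 3.14% at 10, at medians of 49.6 and 45.6 RPM. Fezf1 differed in both, with 21.4% and 7.85% of cells at medians of 89.4 and 49.1 RPM. Cells with none of the 10 genes at a clear level made up 18.6% at 4 somites, 42.2% at 6, 57.7% at 8 and 70.6% (66.2 to 74.8) at 10 somites. Cells with at least 5 of the 10 made up 22.7%, 15.2%, 11.9% and 6.95%.

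Cells with Sox10 reads were then set against cells without them within each stage. Sox10 was read in 17.7%, 32.8%, 75.8% and 80.5% of the cells of 4, 6, 8 and 10 somites. At 10 somites, 8 of 8 genes that reached 5 RPM passed 2-fold lower in the cells with Sox10 reads than in the 87 without, against 8.72% of genes, and Dmbx1 and Emx2, below 5 RPM in both, were lower as well (-1.86 and -2.64). Otx2 stood at 6.19 against 36.7 RPM and Hesx1 at 0.63 against 5.94 RPM. At 6 somites it was 8 of 8, against 3.71%, with Hesx1 at 1.48 RPM in cells with and 15.9 RPM in cells without Sox10 reads. At 4 somites 3 of 9 were lower, against 4.32%, and at 8 somites 3 of 8, against 9.87%. These smaller counts turned on single cells, since Otx1, Hesx1, Six3 and Lhx5 at 4 somites and Six3, Lhx2 and Lhx5 at 8 passed 2-fold without the 1 Sox10 cell with most reads of that gene, and Otx2 at 4 somites (-1.03) did not pass without 1 cell of the other side (-0.96). Markers of other cell types also differed across this split. At 10 somites 9 of 9 endothelial, 6 of 7 surface ectoderm, 5 of 7 head mesoderm, 4 of 4 foregut endoderm and 5 of 7 pan-neural plate genes that reached 5 RPM were lower by 2-fold or more in the cells with Sox10 reads. Of the neural crest genes 12 of 12 were higher, against 2.49% of all genes. Sox10 itself is 1 of them, and its place was fixed by the split. At 6 somites it was 6 of 6 endothelial, 3 of 6 surface ectoderm, 4 of 4 head mesoderm, 3 of 4 foregut endoderm and 4 of 7 pan-neural plate genes. At 8 somites 9 of 9 endothelial, 5 of 6 surface ectoderm, 5 of 7 head mesoderm and 4 of 5 foregut endoderm genes were lower, and 3 of 3 erythroid genes were higher. At 4 somites 4 of 4 endothelial and 2 of 3 head mesoderm genes were lower, but 0 of 6 surface ectoderm genes were, and 2 of these were higher. The part of these cells in the result was not tested. Of other anterior neural plate genes, 3 of 10, 4 of 10, 8 of 12 and 11 of 14 were lower at 4, 6, 8 and 10 somites, and 0 higher. Of midbrain-hindbrain boundary and hindbrain genes, 3 of 8, 3 of 8, 5 of 8 and 3 of 6 were lower, with 1 higher at 6 and at 8 somites. Pan-neural plate genes were lower in 2 of 6 cases at 4 somites, with 1 higher, and in 4 of 7 at 8. The detected genes per cell were 7625 at the median with and 7085 without Sox10 reads at 10 somites.

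A single Sox10 read in a deep cell counts as much as many reads in that split, so it was repeated on thinned reads. This left 10.5%, 27.2%, 69.6% and 77.6% of the cells of 4, 6, 8 and 10 somites with Sox10. At 4 somites, with 23 such cells, 8 of 9 genes passed 2-fold lower, against 8.74% of all genes, and the exception was Dmbx1. At 6 somites it was 8 of 8, against 4.25%, at 8 somites 9 of 9, against 10%, and at 10 somites 9 of 9, against 8.54%. As in the first split, genes could enter these counts through the cells without Sox10 alone. Hesx1 at 8 somites (-1.34) was at -0.98 without 1 cell without Sox10. Otx2 stood at 7.75 against 43.96 RPM at 4 somites, 6.74 against 31.4 at 6, 9.12 against 54.5 at 8 and 5.08 against 36.4 RPM at 10 somites. Its level in Sox10 cells thus lay between 5.08 and 9.12 RPM at all 4 stages. Lhx5 was likewise lower in the Sox10 cells of the early stages, with 11.8 against 36.5 RPM at 4 somites and 8.87 against 32.1 RPM at 6 somites. Within single plates with at least 5 cells on each side, all 10 genes were lower in Sox10 cells on each of 4 plates of 6 somites, on plate B at 8 somites and on plate C at 10. The exceptions were Dmbx1 on both plates of 4 somites, and Lhx2 and Emx2 on plate B at 10 somites, whose 9 cells without Sox10 held 0 reads of either. In those 9 cells 1 cell also held 91.9% of the Six3 and 1 held 92.7% of the Rax reads, and without that cell these genes were higher in Sox10 cells, at 1.43 and 1.97. Lower within a plate means any ratio below 0. Where all 10 genes were lower, the median gene stood between -0.14 and 0.03. There at least 8 genes passed 2-fold lower on each plate, of 8 or 9 tested, against 5.34% to 13.7% of all genes.

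Dmbx1 ran against the others at 4 somites. On thinned reads it stood at 10.2 RPM in cells with and 7.26 RPM in cells without Sox10 (log2 ratio 0.49, counting interval 0.30 to 0.67). On plate D the levels were 3.42 and 2.89 RPM and on plate F 21.2 and 10.4 RPM, in 14 and 9 cells with Sox10. Without the 1 Sox10 cell with most Dmbx1 reads the ratio was 0.10 over both plates and, on plate F, 0.60 in place of 1.03. At 8 somites it stood at 0.32 against 8.55 RPM (-4.74), the widest gap of the 10 genes at that stage.

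**Figure D2:**
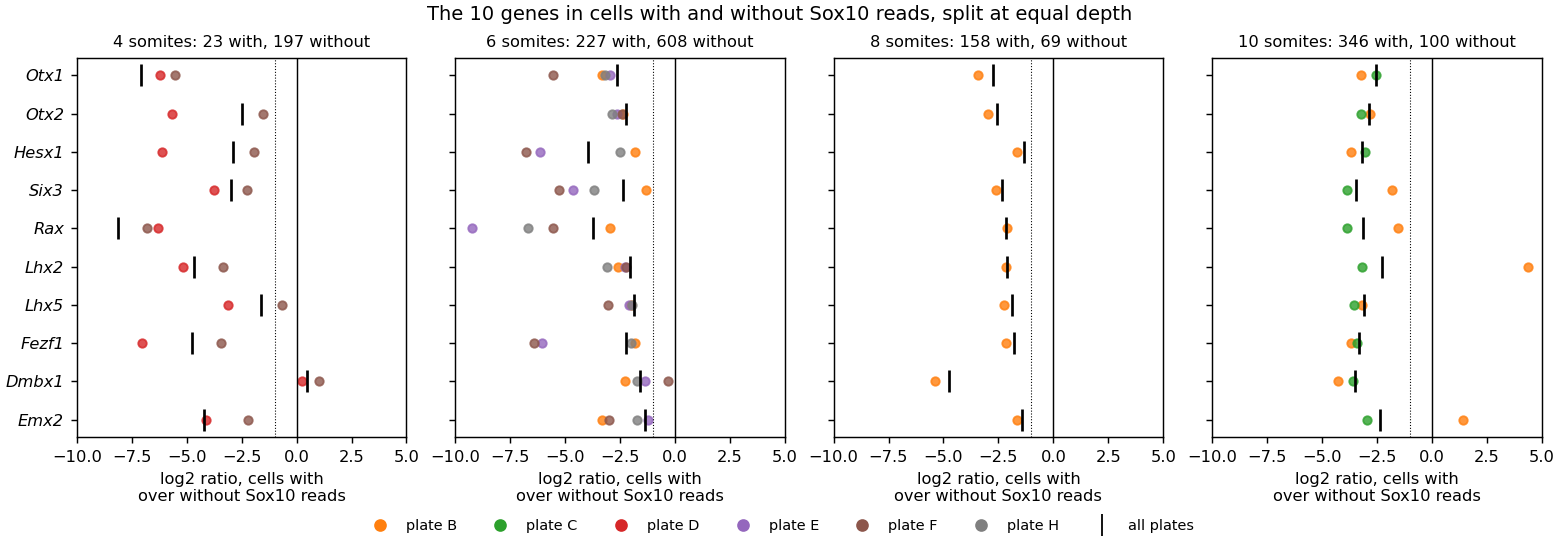
Log2 ratio of RPM between cells with and without Sox10 reads after thinning to 50000 reads (horizontal axis) for each gene (vertical axis) at each stage. Points are plates with at least 5 cells on each side and bars are all plates together, panel titles give the cells on each side, and the dotted line marks 2-fold lower. A gene with 0 reads on a side was set to 3 reads there, so such points are bounds. Dmbx1 lies right of 0 at 4 somites (0.49), and Lhx2 and Emx2 do so on plate B at 10 somites.

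The split also bears on the stage comparison, since cells with Sox10 reads made up 17.7% at 4 somites and 80.5% at 10. Among cells without Sox10 reads, 1 of 9 genes passed 2-fold lower at 10 somites, against 2.02% of genes, and this was Hesx1 (24.7 to 5.94 RPM, log2 ratio -2.05, counting interval -2.21 to -1.90). In these cells Otx2 stood at 44.03 and 36.7 RPM, Lhx5 at 37.1 and 37.1, Fezf1 at 23.1 and 19.2, Six3 at 9.62 and 8.47 and Dmbx1 at 7.11 and 3.96 RPM. Otx1 (11.3 and 14.2 RPM), Rax (14.99 and 20.5 RPM) and Emx2 (1.99 and 2.70 RPM) were higher at 10 somites there, and Lhx2 stood at 7.14 and 14.6 RPM, a log2 ratio of 1.03. Without 1 cell of 10 somites each, Lhx2 was at 0.75 and Dmbx1 at -1.30. Among cells with Sox10 reads, 7 of 8 genes passed 2-fold lower, against 4.37%, with Hesx1 at 14.1 and 0.63 RPM and Otx2 at 21.6 and 6.19 RPM. Otx1 there was at -1.46, or at -0.93 without 1 cell of 4 somites, and Emx2, below 5 RPM, went from -1.06 to 0.14 without 1 cell. At 4 somites 39 cells had Sox10 reads, but 23 did after thinning. On the thinned split Otx2 in Sox10 cells differed less between 4 and 10 somites, as given above, so these ratios depend on how the cells were split. Hesx1 remained lower in cells without Sox10 reads when any of the 5 plates was left out, with ratios from -2.43 to -1.15, the last of them, without plate F, at -0.97 when 1 further cell of 4 somites was left out. Without plate F, Otx2 turned from -0.26 to 0.65, Six3 from -0.18 to 0.61 and Dmbx1 from -0.84 to 0.65 in these cells. Without plate C, 7 such cells of 10 somites were left, with 0 reads of Lhx2 and Lhx5 at 154.2 RPM, 76.2% of it in 1 cell, so the values of both genes rest on which plates entered. These comparisons were chosen after the stage ratios had been seen.

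**Figure D3:**
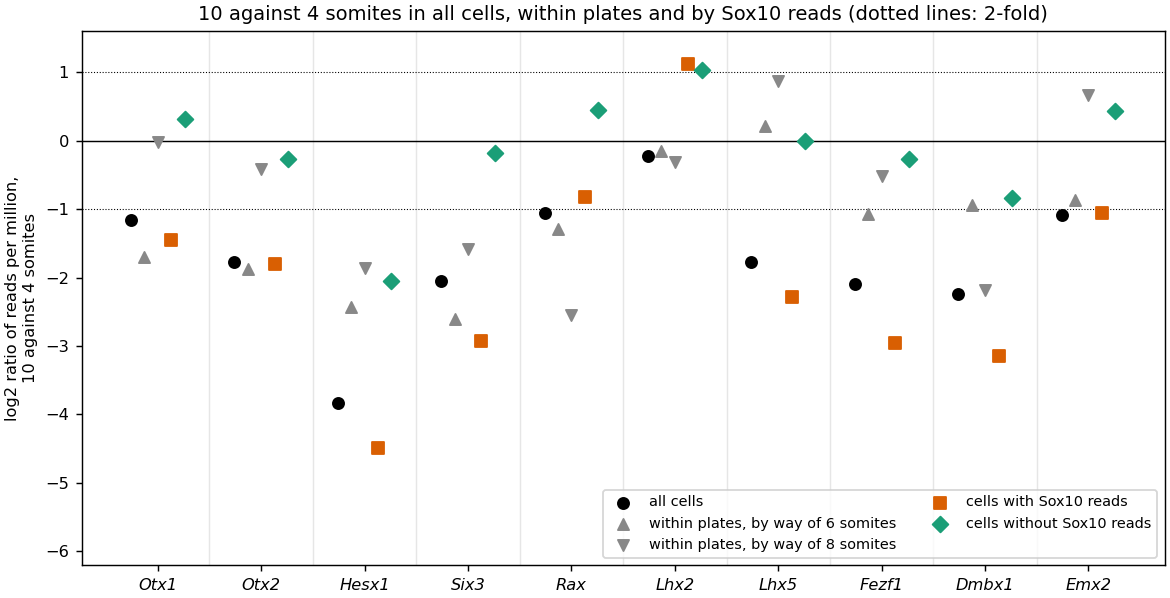
Log2 ratio of RPM at 10 against 4 somites (vertical axis) for the 10 genes (horizontal axis) in all cells, by the 2 routes within plates, and in cells with or without Sox10 reads. In cells without Sox10 reads Hesx1 alone lies below the lower 2-fold line, at -2.05, and Lhx2 lies above the upper one, at 1.03.

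Pou5f1 was lower at each later stage, with 11.8, 4.26, 0.27 and 0.17 RPM, and the split was made at 4 and 6 somites only. At 8 and 10 somites 15 and 25 cells had reads of it. At 4 somites 58.6% of cells had Pou5f1 reads and 91 cells had none. With Pou5f1, 0 of 9 genes passed 2-fold lower, against 1.27% of genes, and 1 of 9 passed 2-fold higher, against 1.88%. That gene was Dmbx1, at 10.1 against 4.25 RPM. Otx2 stood at 46.8 against 30.3 RPM, and Rax at 11.2 against 15.98 RPM. At 6 somites, where 30.2% of cells had Pou5f1 reads, 0 of 8 were lower, against 1.09%, and 0 of 8 were higher, against 0.191%, with ratios from -0.17 (Lhx2) to 0.77 (Emx2). The split at 4 somites followed the plates, since 94 of the cells with Pou5f1 came from plate F and 35 from plate D. Within plate F 0 of 9 genes passed 2-fold lower, against 4.93% of genes, and 0 of 9 higher, against 3.49%, with Dmbx1 at 0.57. Fezf1 there (0.45) was at 1.18 without 1 cell without Pou5f1. Within plate D 0 of 8 were higher, against 1.88%, and 5 of 8 were lower with Pou5f1, against 3.27% of genes, namely Rax (-3.31), Lhx2 (-2.90), Six3 (-2.75), Hesx1 (-1.63) and Fezf1 (-1.53). These rest on 35 cells with and 57 without Pou5f1.

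The clusters, built without the 10 genes, showed where their reads lay. Cluster 3, led by Foxd4, Irs4, Pim2, Fzd5, Dkk1 and Shisa2, held 9.78% of all cells, and made up 14.5% of the cells of 4 somites, 15.7% of 6, 0% of 8 and 1.35% of 10 somites. It carried 54.96% of all Fezf1 reads, 54.8% of Rax, 50.1% of Hesx1, 44.9% of Six3, 44.6% of Lhx2 and 42.3% of Emx2 reads. Levels there were 81.9 RPM for Lhx5, 61.8 for Fezf1, 61.4 for Otx2, 49.98 for Rax and 47.8 for Hesx1. The exception was Dmbx1, at 1.13 RPM and 3.16% of its reads. Sox10 stood at 0.89 RPM and Pou5f1 at 4.95 RPM in this cluster. Levels within it also differed by stage, as Hesx1 stood at 77.7 RPM in its cells of 4 somites and 39.8 RPM in those of 6, and Fezf1 at 95.3 and 50.7 RPM. Otx2 was nearly level, with 63.4 and 60.9 RPM, and Otx1 went the other way, with 16.4 and 32.6 RPM. Stage and plate were not separated in these values.

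Otx1 and Otx2 were highest in cluster 14, led by Foxa1, Nkx2-9 and Foxa2 with Shh among its top genes, where the 42 cells had 34.2 and 76.2 RPM. Foxa2 and Shh are known from the ventral midline of the neural tube. Lhx5 (73.8 RPM), Fezf1 (35.1) and Hesx1 (20.97) were high there too. Cluster 4, led by Hes3, Fam181b, Fgf15, En1 and Gbx2, genes of the midbrain-hindbrain boundary among them, had Otx2 at 20.7 and Lhx5 at 13.5 RPM with Six3 at 0.69 and Rax at 1.45 RPM.

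Dmbx1 was highest in cluster 5, with 13.9 RPM and 36.3% of its reads. That cluster was led by Fos, Pmaip1 and Egr1, of which Fos and Egr1 are genes of dissociation stress, 80.3% of its cells came from plate F, and its Pou5f1 level was 18.4 RPM. The part of the plate in the Dmbx1 level was not tested. The surface ectoderm-like cluster 6, led by Cldn6, Krt7 and Krt8, held Otx2 at 37.01, Hesx1 at 9.92, Six3 at 7.57 and Dmbx1 at 6.32 RPM, but Rax at 0.64 and Lhx2 at 0.79 RPM. In cluster 7, led by Msx3, Wnt8b and Pax8, with 58 and 56 cells of 8 and 10 somites, Otx2 stood at 53.5 and 26.05 RPM and Hesx1 at 6.44 and 0.13 RPM.

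The clusters with high Sox10 levels differed in the 10 genes, and clusters 1 and 12 held little. In cluster 1, led by Plcg2, Tbx3 and Erbb3 with Sox10 at 235.9 RPM, Otx2 stood at 3.04 RPM and Hesx1 at 0.22 RPM. In cluster 12, with Dlx2 and Alx1 among its leading genes and 67 cells, Lhx2 was the highest of the 10 with 0.49 RPM, and Otx2 stood at 0.24 RPM. Cluster 2, led by Sox9, Bmper and Gfra1, with Foxd3 and Ets1 among its leading genes and Sox10 at 96.5 RPM, had Lhx5 at 8.59 RPM, clear in 17.6% of its cells, and Otx2 at 4.53 RPM. Cluster 13, with 65 cells of 10 somites, led by Crabp1 and ribosomal protein genes and with Sox10 at 172.3 RPM, had Otx2 at 19.03, Rax at 9.59, Otx1 at 8.41 and Lhx5 at 6.68 RPM, with Otx2 clear in 21.5% of its cells. In cluster 8 the 120 cells, 75% of them from plate B, had Sox10 at 274.96 RPM and still a clear level of Fezf1 and of Otx2 in 32.5% of cells each. It had 8524.5 detected genes per cell at the median against 7519 in cluster 1, and the mean summed level of 7 erythroid markers was 490.03 RPM against 1.61 RPM. The part of mixed RNA in these values was not tested.

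**Figure D4:**
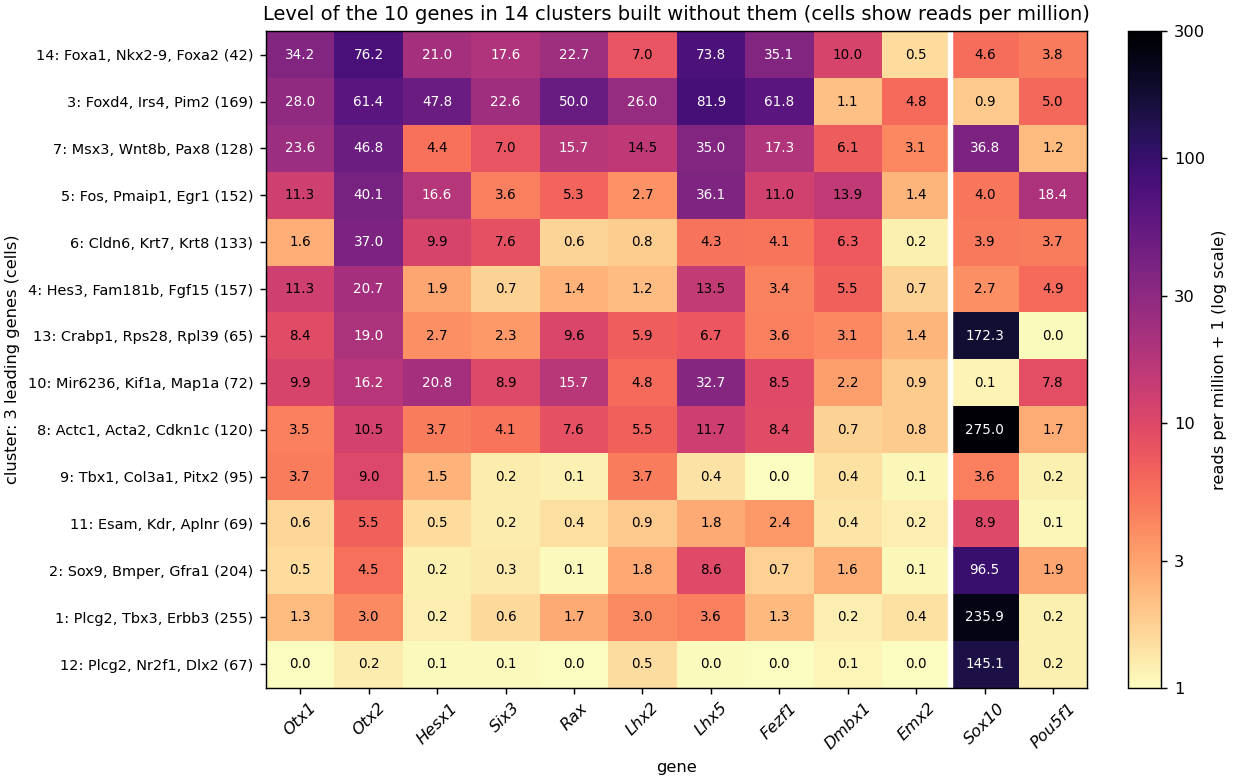
RPM of the 10 genes, Sox10 and Pou5f1 (columns) in each of the 14 clusters (lines of the plot, ordered by Otx2 and named by 3 leading genes with the number of cells), with colour on a log scale. Cluster 3 holds Lhx5 at 81.9 and Hesx1 at 47.8 RPM together with Sox10 at 0.89 RPM, and cluster 12 holds none of the 10 above 0.49 RPM.

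The genes were detected together in single cells. Of the 11.1% of cells with a clear level of Rax, 84.3% had Otx2, 82.7% Lhx5, 80.6% Fezf1, 70.7% Hesx1, 67.02% Six3 and 65.4% Lhx2 at a clear level. Among the other cells these shares were 31.8% for Otx2, 21.6% for Lhx5, 7.87% for Fezf1, 8.72% for Hesx1, 5.20% for Six3 and 5.86% for Lhx2. Dmbx1 was at a clear level in 5.24% of cells with Rax and 9.56% of cells without. Correlations of log2(RPM + 1) over the 1728 cells, with the mean of each plate within each stage subtracted, were highest for Six3 with Rax (r = 0.73), Hesx1 (0.73) and Fezf1 (0.73), and stood at 0.68 for Rax with Lhx2. Otx1 went most with Otx2 (0.61). Dmbx1 correlated at most at 0.22 with another of the 10, which was Otx2, and stood at -0.09 with Fezf1. These values describe cells that share embryos, plates and depth, and no p-value is given.

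The genes most like each one were mostly others of the 10. Irs4, an insulin receptor substrate, was the third for Otx1 (r = 0.54) and the second for Otx2 (0.59), and Foxd4, a forkhead factor, was among the first 3 for Hesx1 (0.68). Epha7, an ephrin receptor, was among them for Lhx5 (0.55), and Pax6 (0.48) and Wnt8b (0.46) were for Emx2. For Dmbx1 the closest gene was Wnt1 (0.32), whose promoter drives the Cre, and no other gene reached 0.3.

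Cells with Rax at a clear level, which are different cells at each stage, were then compared. Their median Rax level was itself lower later, at 59.4, 54.8, 36.7 and 33.3 RPM at 4, 6, 8 and 10 somites. There were 29, 97, 29 and 36 such cells at 4, 6, 8 and 10 somites, and they lay in different clusters from stage to stage. Cluster 3 held 75.9% of them at 4 somites, 59.8% at 6, 0 at 8 and 13.9% at 10. At 8 somites 48.3% lay in cluster 8 and 41.4% in cluster 7, and at 10 somites 27.8% lay in cluster 1. Hesx1 in them stood at 94.5 RPM (91.2 to 97.9), 57.7, 21.1 and 15.9 RPM (14.5 to 17.4). Otx2 did not follow, at 65.5, 51.3, 65.2 and 53.4 RPM, nor did Lhx5, at 90.3, 86.9, 60.2 and 73.3 RPM. Lhx2 stood at 31.9, 34.9, 58.1 and 41.2 RPM. All 29 of these cells had a clear level of Hesx1 at 4 somites (100%), and 33.3% did at 10. In the Rax cells of cluster 3 alone Hesx1 stood at 93.7 RPM in 22 cells of 4 somites, 64.6 in 58 cells of 6 and 25.1 RPM in 5 cells of 10 somites. Within plate F Hesx1 was 113.4 RPM at 4 and 74.2 RPM at 6 somites, and within plate B it was 22.9, 21.6 and 4.73 RPM at 6, 8 and 10 somites. Plates of 6 somites differed among themselves, as plates E and F held 75.9 and 74.2 RPM and plates H and B 24.8 and 22.9 RPM.

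Sox10 in the same Rax cells stood at 0.27, 9.81, 112.2 and 58.5 RPM over the stages. At 4 somites 0 cells had both genes at a clear level, but 14 of 6, 19 of 8 and 18 of 10 somites did. At 8 somites these 19 cells had 10295 detected genes at the median, against 7910.5 in the 10 cells with Rax alone and 7764.5 in those with Sox10 alone, and a median Rax level of 29.4 RPM against 121.7 RPM with Rax alone. At 6 somites the 14 cells had 10298.5 detected genes against 6513 with Rax alone. Whether such wells held RNA of more than 1 cell was not tested.

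**Figure D5:**
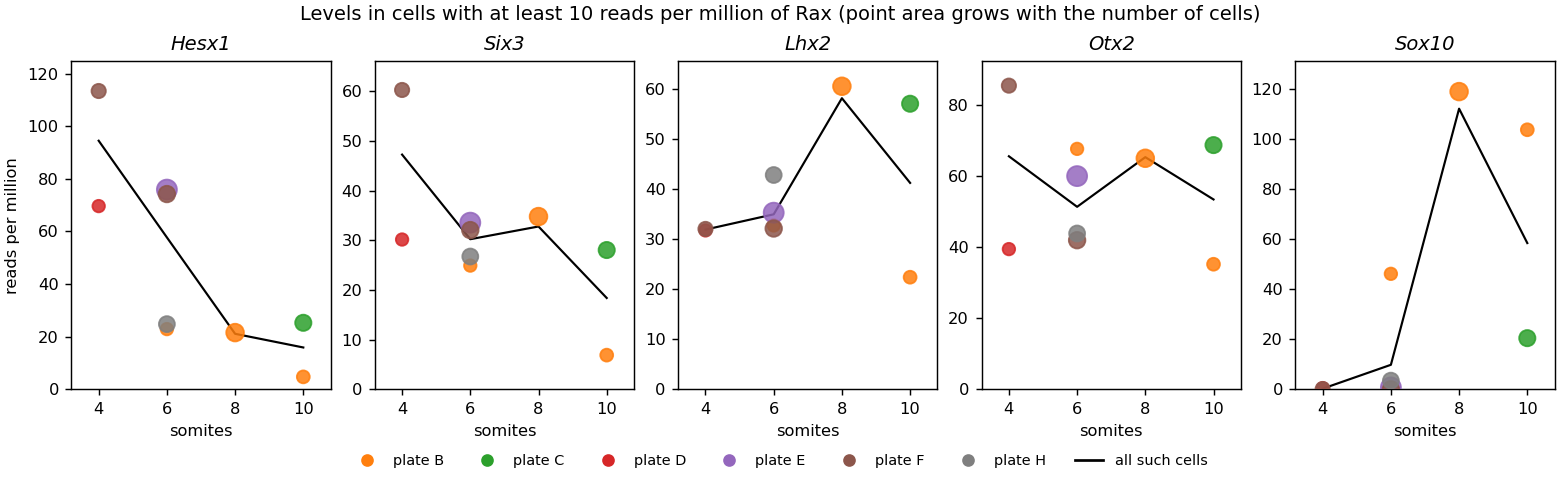
RPM of 4 of the genes and of Sox10 (vertical axes) by stage in cells with at least 10 RPM of Rax. Points are plates with at least 5 such cells, with area growing with their number, and lines are all such cells of a stage. Hesx1 runs from 94.5 to 15.9 RPM while Otx2 stays between 51.3 and 65.5 RPM. Sox10 is highest on plate B at 6 and 10 somites, and plate B is the only plate shown at 8.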

How the data were processed

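Per the labels and the values, the deposited table gave raw counts of reads for each gene and cell, with no molecular identifiers. Per the submitters' processing notes, bcl2fastq 2.18, STAR 2.6 and mm10 were used. The sources used here do not give how reads were counted, with which annotation and strand setting, or whether cells were filtered. The 92 spike-ins were left out. The members and gene lists were chosen with earlier results of these data known. All 10 genes are named, with the 3 genes of highest correlation to each (r at least 0.3), and up to 4 genes of a marker list by the size of the 10 against 4 ratio.

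Reads were summed over kept cells, 0.5 reads were added, and ratios of RPM were taken with exact conditional intervals. A sum of 0 was set to 3 reads. Each stage is 1 pool, so no p-value was computed, and no doublet caller was run on sorted wells. Thinning used a fixed seed. Clusters came from scanpy 1.11.5 with igraph 0.11.9 (2000 variable genes without the members, 30 components, 15 neighbours, resolution 1), and a leading gene needed reads in 30% of its cluster. Other scalings used edgeR 4.0.16 and DESeq2 1.42.0, for factors alone. The ratio code was tested on simulated data.

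Other marker lists were counted at 10 against 4 somites among members reaching 5 RPM. Lower and higher members were 3 and 1 of 6 pan-neural plate genes, 5 and 0 of 5 pluripotency and epiblast genes, 0 and 3 of 6 endothelial, 2 and 0 of 6 surface ectoderm, 0 and 2 of 5 head mesoderm, 0 and 2 of 2 foregut endoderm and 2 and 0 of 7 dissociation stress genes. No notochord and floor plate, erythroid or cardiac gene reached 5 RPM.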

Additional observations from a re-analysis of the deposited data

Results flagged for a closer look

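Dmbx1 was the 1 gene of the 10 whose difference between cells with and without Sox10 reads changed sign between stages. Its log2 ratio was 0.45 at 4 somites, -1.18 at 6, -4.12 at 8 and -1.86 at 10 somites, and the difference between stages was not tested. The ratio at 4 somites rests on plates D and F, in which Dmbx1 stood at 2.98 and 11.2 RPM.

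The difference between cells with and without Pou5f1 reads changed sign between 4 and 6 somites for 4 genes. Six3 stood at -0.14 at 4 somites and 0.41 at 6, Rax at -0.51 and 0.14, Fezf1 at -0.35 and 0.32, and Emx2 at -0.92 and 0.77 on the log2 scale. These differences were not tested, and at 4 somites 94 of the cells with Pou5f1 lay on plate F and 57 of those without it on plate D. Within plate F, which held both stages, Six3 stood at -0.24 and 0.21, Rax at 0.08 and -1.24, Fezf1 at 0.45 and -0.05, and Emx2 at 1.48 and 0.55, so the change of sign was absent there for Emx2 and went the other way for Rax and Fezf1.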

How the results depend on the processing

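The 8 genes lower at 10 than at 4 somites came to 3 without plate F (against 2.23% of genes) and to 4 by way of 8 somites, and to between 6 and 9 under the other settings. Without plate F, Six3 and Dmbx1 stayed below 5 RPM and left the count. The 1 gene lower from 4 to 6 somites became 2 by the mean of RPM per cell, 0 without Rn45s in the totals, by TMM or DESeq2 factors, and between 0 (without plate H) and 4 (without plate D) on leaving out a plate. The 1 from 6 to 8 somites became 2 without Rn45s, by TMM or DESeq2 factors and without plate D or H, and 0 within plate B. The 1 from 8 to 10 somites became 0 by the mean per cell, without Rn45s, by TMM or DESeq2 factors and within plate B, 2 with no minimum RPM, and 0 (without C or D), 2 (without G) or 5 (without B) on leaving out a plate. Without plate B the median gene over that step stood at 0.34 in place of -0.17. The Sox10 split at 4 somites went from 3 to 8 on thinned reads or with at least 10 Sox10 reads, and at 8 somites from 3 to 9 and 8. The Pou5f1 split at 4 somites went from 1 higher to 0 on thinned reads and on plate D or F alone (against 1.88% and 3.49% of genes), and from 0 lower to 5 on plate D (against 3.27%). At 6 somites it went from 0 higher to 1 with at least 10 reads, 2 on plate B and 1 on plate E, and from 0 lower to 1 on plate F. Counts given in this section without a share over all genes are not set against a background. In cells without Sox10 reads, the 1 lower gene became 2 without plate B or D (Dmbx1, -1.30 and -1.35), against 2.24% and 4.11% of genes. Without plate C it also became 2 (Lhx2, with 0 reads in 7 cells), against 11.6%. These settings were chosen after the data had been seen. Of ratios past 2-fold, 4 of 40 turned direction under some setting, in 1.27% of their alternative values, while 35 of the 60 ratios nearer 0 did, in 8.84%. Those past 2-fold were Lhx5 by way of 6 and 8 somites (0.22 and 0.88, but -0.57 and 0.09 without 1 cell of plate B), Emx2 by way of 8 (0.66, but -0.14 without 1 cell), and Lhx2 and Emx2 in the Sox10 split on plate B at 10 somites (3.44 and 0.49). The Lhx2 share was 0.567 points higher at 10 somites without thinning. The cluster with most Rax had the highest level of 7 genes, also with another seed, and of 9 and 5 genes at resolutions 0.5 and 1.5. The causes were not tested. No paired analysis was possible because each stage is 1 pool and the results come from no test, and the values within plates stand in its place. Leaving out the cell with most reads of a gene was added after the data had been seen.

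Leaving Rn45s out moved the median gene from 0.17 to 0.02 for 10 against 4 somites and from 0.46 to 0.01 for 8 against 6. The lower share of all 2-fold differences moved from 37.2% to 47.6% (10 against 4), 9.13% to 47.8% (8 against 6), 42.3% to 25.4% (6 against 4) and 83.8% to 49.4% (10 against 8). Depth limits the low genes most, and Emx2 never reached 5 RPM in a whole stage.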
